A study of Mus musculus with 28 samples.

Results

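Of the 22551 H3K4me3 peaks that the study called in A2a nuclei, 3430 (15.2%) lay far from every annotated transcript start and were also called in D1 nuclei. The peaks were chosen by measured values: they were selected on being present in both H3K4me3 lists, on a length under 2400 bp, on lying on chromosomes 1 to 19, and on a nearest edge at least 5000 bp from the start of every GENCODE transcript of any biotype. The A2a list held 21819 autosomal peaks, of which 20258 were under the length limit, and 16387 of these overlapped a D1 peak by at least 1 bp. The other 12957 shared peaks of the same length class had a transcript start closer than 5 kb and serve below as the comparison, beside 2019 far peaks of the same length that were called in A2a alone. The label "far from any TSS" held for GENCODE, by construction, but not for every annotation. The GENCODE annotation used here lists no tRNA genes on these chromosomes, so a peak over a tRNA gene could count as far. RefSeq places a tRNA gene inside 47 of the 3430 peaks and a transcript start within 1 kb of 269 others, and 3114 (90.8%) had neither.

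H3K4me3 is laid down by the SET1 and MLL methyltransferases around the start sites of transcribed genes, and CpG islands recruit these enzymes. Enhancers usually carry the monomethylated form, H3K4me1, so a trimethylated peak away from genes can mark an unannotated promoter, a gene of another polymerase or a strongly active enhancer. RNA polymerase III transcribes tRNA genes from promoter elements inside the gene, and active tRNA genes lie in nucleosome-poor gaps flanked by nucleosomes with active marks. H3K27me3 is the mark of the Polycomb repressive complex PRC2, which silences developmental and other-lineage genes.

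The nuclei came from the striatum of mice about 8 weeks old, of both sexes, on the C57BL/6J background. Both lines carried R26-CAG-LSL-Sun1-sfGFP, a tagged nuclear membrane protein that Cre switches on, with A2a-cre for the medium spiny neurons (MSNs) of the indirect pathway and Drd1-cre for those of the direct pathway, so a nucleus belonged to a group by its history of Cre expression. Nuclei were taken by INTACT, which pulls down the tagged nuclei, and profiled by CUT&RUN (CnR), with an Abcam antibody for H3K4me3 and an Active Motif antibody for H3K27me3. Each of the 4 deposited lists pools 2 replicates, so no spread between mice and no test across mice can be given, intervals below cover counting error only, and a change in the share of nuclei with a mark cannot be told apart from a change in the amount per nucleus. The source name of the D1 H3K27me3 samples reads A2a while their title and cell type read D1, and they were taken as D1.

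The cell type labels were checked at the promoters (2 kb upstream to 1 kb downstream of a transcript start) of marker genes. All 5 indirect pathway markers (Adora2a, Drd2, Penk, Gpr6 and Sp9) had an H3K4me3 peak in both lists. Their promoters lay in H3K27me3 islands for 3 of 5 genes in A2a and for 5 of 5 in D1. Of 5 direct pathway markers, 4 had an H3K4me3 peak in A2a and 5 in D1, and all 5 lay in islands in both. Glial promoters had an H3K4me3 peak more often in the A2a list than in the D1 list. The counts were 5 and 3 of 6 for astrocytes, 7 and 4 of 8 for oligodendrocytes and 4 and 1 of 6 for microglia. None of 6 interneuron markers had a peak in either list. Over all autosomal protein-coding genes 63.1% had a peak in A2a and 60.5% in D1. Promoters in H3K27me3 islands numbered 6 in A2a and 5 in D1 for astrocytes, 4 and 4 for oligodendrocytes, 4 and 2 for microglia and 6 and 6 for interneurons. Of the 3430 far shared peaks, 4 had an astrocyte marker as the nearest protein-coding gene, 1 an interneuron marker, and none an oligodendrocyte or microglia marker. The part of glial nuclei in these peaks was not tested.

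The sequences of 10 peaks are shown here as 300 bp on the plus strand of GRCm38 (mm10) centred on the A2a summit, with CpG dinucleotides in capitals, because the share of peaks rich in CpG rose with peak strength. The 3 strongest peaks outside the protocadherin locus, named by their nearest protein-coding gene, were the following, with 10, 11 and 24 CpGs.
Gpx5 peak (chr13:21253640-21253939, + strand): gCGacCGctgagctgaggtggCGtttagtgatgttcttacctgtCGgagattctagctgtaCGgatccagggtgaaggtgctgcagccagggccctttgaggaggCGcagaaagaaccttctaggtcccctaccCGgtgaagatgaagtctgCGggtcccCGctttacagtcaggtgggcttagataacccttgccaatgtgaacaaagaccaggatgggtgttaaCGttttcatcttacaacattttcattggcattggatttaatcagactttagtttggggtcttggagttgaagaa
Gpx5 peak (chr13:21259203-21259502, + strand): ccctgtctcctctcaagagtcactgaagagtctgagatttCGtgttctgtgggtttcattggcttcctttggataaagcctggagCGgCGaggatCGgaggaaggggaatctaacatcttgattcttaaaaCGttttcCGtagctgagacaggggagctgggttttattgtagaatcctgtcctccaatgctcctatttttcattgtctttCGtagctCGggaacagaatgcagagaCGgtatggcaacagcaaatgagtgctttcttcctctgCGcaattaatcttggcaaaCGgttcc
Ezh2 peak (chr6:47651311-47651610, + strand): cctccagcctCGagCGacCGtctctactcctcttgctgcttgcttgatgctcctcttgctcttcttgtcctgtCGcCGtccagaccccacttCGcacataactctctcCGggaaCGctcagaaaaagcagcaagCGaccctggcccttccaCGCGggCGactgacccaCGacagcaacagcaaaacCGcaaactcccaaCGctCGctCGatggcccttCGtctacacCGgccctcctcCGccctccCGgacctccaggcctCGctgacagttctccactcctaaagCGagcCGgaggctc
The farthest peak from any transcript start, in an intron of Ptprd, held 2 CpGs in its window.
Ptprd peak (chr4:77453843-77454142, + strand): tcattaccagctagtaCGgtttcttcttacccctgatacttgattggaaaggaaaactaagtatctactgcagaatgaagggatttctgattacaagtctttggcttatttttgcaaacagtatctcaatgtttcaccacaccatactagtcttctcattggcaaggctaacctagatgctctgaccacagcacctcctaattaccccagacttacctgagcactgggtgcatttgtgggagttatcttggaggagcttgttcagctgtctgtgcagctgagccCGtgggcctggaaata
The 3 strongest peaks near genes of the projection neuron and activity-induced lists held 4, 8 and 9 CpGs.
Rarb peak (chr14:17171990-17172289, + strand): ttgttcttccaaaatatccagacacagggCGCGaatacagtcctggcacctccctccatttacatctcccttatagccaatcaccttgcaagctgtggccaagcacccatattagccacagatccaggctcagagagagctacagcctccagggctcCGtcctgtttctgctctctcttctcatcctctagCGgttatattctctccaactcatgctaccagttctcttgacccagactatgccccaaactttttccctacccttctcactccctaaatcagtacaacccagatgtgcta
Npas4 peak (chr19:5001987-5002286, + strand): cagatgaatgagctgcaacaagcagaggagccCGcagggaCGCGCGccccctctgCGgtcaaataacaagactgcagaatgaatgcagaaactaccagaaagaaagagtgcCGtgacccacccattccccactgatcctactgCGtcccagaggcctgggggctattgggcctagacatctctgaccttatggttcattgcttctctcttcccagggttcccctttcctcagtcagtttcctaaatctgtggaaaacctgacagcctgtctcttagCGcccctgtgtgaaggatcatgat
Nr4a1 peak (chr15:101240914-101241213, + strand): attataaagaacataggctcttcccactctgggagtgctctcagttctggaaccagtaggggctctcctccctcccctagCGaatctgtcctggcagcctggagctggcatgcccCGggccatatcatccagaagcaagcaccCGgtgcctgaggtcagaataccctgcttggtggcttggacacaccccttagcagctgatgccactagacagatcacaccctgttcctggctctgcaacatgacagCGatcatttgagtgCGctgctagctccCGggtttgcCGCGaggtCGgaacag
The strongest peak that lay in H3K27me3 islands of both cell types held 5 CpGs.
Robo1 peak (chr16:72028214-72028513, + strand): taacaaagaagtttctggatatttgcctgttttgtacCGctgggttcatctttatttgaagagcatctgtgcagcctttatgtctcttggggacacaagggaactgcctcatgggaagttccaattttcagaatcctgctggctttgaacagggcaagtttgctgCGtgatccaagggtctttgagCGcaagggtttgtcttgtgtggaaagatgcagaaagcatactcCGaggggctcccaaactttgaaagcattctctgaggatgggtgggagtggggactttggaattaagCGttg
The 2 peaks with the highest CpG observed/expected ratio over their whole length held 31 and 16 CpGs.
Pdia4 peak (chr6:47740268-47740567, + strand): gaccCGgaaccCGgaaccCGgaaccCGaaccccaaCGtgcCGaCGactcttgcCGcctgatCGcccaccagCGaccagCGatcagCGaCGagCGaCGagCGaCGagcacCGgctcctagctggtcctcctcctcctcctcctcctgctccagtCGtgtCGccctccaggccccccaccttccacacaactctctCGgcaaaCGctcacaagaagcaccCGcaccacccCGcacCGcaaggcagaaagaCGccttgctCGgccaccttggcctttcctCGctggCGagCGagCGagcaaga
Usp29 peak (chr7:6874404-6874703, + strand): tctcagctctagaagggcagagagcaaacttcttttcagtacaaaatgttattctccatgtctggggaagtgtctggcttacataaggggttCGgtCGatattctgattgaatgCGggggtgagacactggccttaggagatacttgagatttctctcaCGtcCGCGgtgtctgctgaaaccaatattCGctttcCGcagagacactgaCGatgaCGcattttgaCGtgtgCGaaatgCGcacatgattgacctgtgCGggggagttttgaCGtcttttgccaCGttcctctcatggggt

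RefSeq tRNA genes lay inside 4 of the 11 peaks singled out by their strength in A2a or D1. The genes of 2 of these peaks are shown on the strand of the gene, with the gene in capitals and 10 flanking bases on each side, because 18 of the 50 strongest far peaks held a tRNA gene.
n-TAagc19 (chr13:21259758-21259849, + strand): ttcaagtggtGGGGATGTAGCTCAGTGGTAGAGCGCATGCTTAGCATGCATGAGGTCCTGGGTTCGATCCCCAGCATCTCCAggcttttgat
n-TMcat8 (chr13:21975022-21975113, + strand): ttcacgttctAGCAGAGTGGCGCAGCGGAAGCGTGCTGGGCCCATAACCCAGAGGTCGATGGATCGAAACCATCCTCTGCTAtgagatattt

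The far shared peaks were narrower and weaker than shared peaks near a transcript start. Their median length was 706 bp (quartiles 488 and 988 bp), against 1443 bp near a start and 389 bp for the far peaks of A2a alone. The median fold enrichment over the local background at the summit was 6.45 in A2a (quartiles 4.88 and 8.60), against 7.82 near a start and 4.30 for far peaks of A2a alone. By −log10 q, the strength of the peak call, the median far shared peak stood at percentile 31.0 of the A2a list, and its partner, the D1 peak with the longest overlap, at percentile 22.4 of the D1 list. The medians near a start were 65.0 and 60.6. By fold enrichment the gap was smaller, with a median percentile of 47.4 in A2a against 64.8 near a start. The ranking by q was thus lower than the ranking by height, and the far peaks were also shorter. These values come from the lists that chose the peaks and are a description.

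Sharing rose with strength. Of 5449 far A2a peaks under the length limit, 62.9% (95% Wilson interval 61.7 to 64.2) were also called in D1, against 87.5% (87.0 to 88.0) of 14809 near a start. Below percentile 25 of the A2a list 40.9% of the far peaks were shared, from 25 to 50 it was 87.6%, from 50 to 75 100% and above 75 98.7%. Most of the far shared peaks nevertheless came from the lower classes, with 1221 below percentile 25, 1777 from 25 to 50, 354 from 50 to 75 and 78 above 75. Near a start the numbers rose in the same order, with 862, 3160, 4228 and 4707 peaks.

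Overlap with a D1 peak was the rule, so the closeness of the A2a and D1 calls is a description. The summits lay a median of 67 bp apart (quartiles 25 and 151 bp), and 2161 (63.0%) were within 100 bp, against 64 bp and 60.4% near a start. The overlap covered a median of 79.9% of the A2a peak and 99.9% of the D1 peak. A2a peaks were called wider, by a median ratio of 1.17, and the median ratio of A2a to D1 fold enrichment was 1.22, against 1.07 near a start. The percentile was higher in A2a than in D1 for 77.6% of the far shared peaks, beside a background of 71.9% of all 16387 shared peaks under the length limit, and being an A2a peak was part of the rule. Across the 3430 peaks the A2a and D1 percentiles correlated with a Spearman rho of 0.78, against 0.91 near a start, over peaks that share the same pair of pooled libraries. The far shared peaks covered a narrower range, with A2a percentile quartiles of 19.05 and 42.3, against 45.03 and 83.04 near a start. The part of this range in the lower rho was not tested. The lists are not normalized to each other, and library depth is not known from them.

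**Figure D1:**
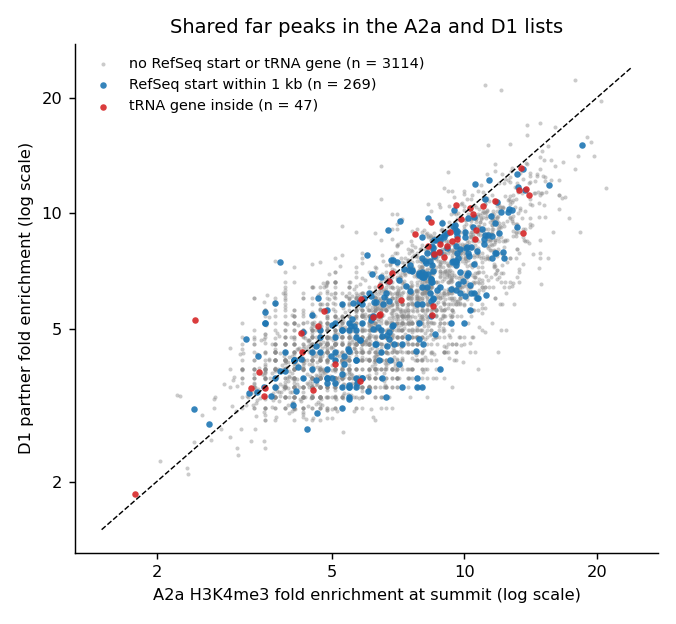
H3K4me3 fold enrichment at the summit of each far shared peak in A2a (horizontal, log scale) and of its D1 partner (vertical, log scale), coloured by RefSeq annotation, with a dashed line of equality. Most points lie under the line, since 79.3% had the higher fold enrichment in A2a, and tRNA peaks spread from 1.79 to 13.98 in A2a, with a median of 8.38 against 6.45 for all far shared peaks.

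Large gaps between the lists were few. The percentile in A2a minus that in D1 had a median of 7.28 points (quartiles 0.63 and 13.24), and 344 peaks differed by over 20 points, 300 of them higher in A2a. The extremes were chosen after their values were seen. The largest gap towards D1 was a 340-bp peak at chr18:40308033-40308372 in an intron of Kctd16, a GABA-B receptor auxiliary subunit, enriched 12.11-fold in A2a and 20.98-fold in D1. The largest gap towards A2a was at chr10:123398112-123399031 in an intron of Fam19a2, a secreted chemokine-like protein, with 7.52 in A2a and 3.33 in D1. Neither had a replicate check.

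The strongest far shared peak in A2a lay in the protocadherin locus on chromosome 18. This peak, chr18:37216845-37218386, was enriched 14.05-fold in A2a and 12.51-fold in D1 and a −log10 q of 381.1 and 218.4, and lay 46.6 kb from Pcdhb1, a clustered protocadherin gene of neuronal cell recognition. It stood at percentile 99.9 of the A2a list and 99.4 of the D1 list, and the nearest RefSeq start was that of Pcdhb1 as well. It was the only one of the 8 strongest on that chromosome.

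The next strongest peaks gathered on chromosome 13, in the region that holds the main histone cluster and many tRNA genes. The peak at chr13:21252988-21254184, 38.5 kb from Gpx5, was enriched 10.37-fold in A2a and 8.17-fold in D1, and the start of a predicted RefSeq lncRNA lay 14 bp outside it. Its neighbour at chr13:21258708-21260218 had 8.97 and 7.68 and held the tRNA-Ala gene n-TAagc19. The peak at chr13:21974067-21975246, 5.9 kb from Pom121l2, had 13.80 and 11.54 and held the tRNA-Met gene n-TMcat8. A further peak of this region, chr13:23437155-23438560 near Abt1, had 6.18 and 5.38 and held a tRNA-Ile gene. The fold enrichment of the last was below the median of the far shared peaks, and its −log10 q of 302.5 in A2a was among the 8 highest.

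The other 3 of the 8 strongest stood on separate chromosomes. At chr6:47650747-47651823, 55.4 kb from Ezh2, the catalytic subunit of PRC2, the fold enrichment was 18.45 in A2a and 15.07 in D1, and a predicted RefSeq lncRNA started inside the peak. At chr19:61266413-61267165, near the end of the chromosome, it was 20.45 and 19.59, and an A2a H3K27me3 island of 5.2 kb covered the site while no D1 island did. At chr3:95950501-95951702, 6.3 kb from Anp32e, it was 14.60 and 12.64. All 3 met CpG island criteria (GC of at least 50%, CpG observed/expected of at least 0.6 and a length of at least 200 bp), with ratios of 0.78, 0.75 and 0.69.

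Ranking by the D1 list added 3 peaks. The peak at chr15:75085534-75087043, 24.7 kb from Ly6c2, had the highest D1 −log10 q, 256.4, enriched 16.01-fold in A2a and 16.81-fold in D1, and 54.2% of its sequence was soft-masked as repeat. The peak at chr15:57975106-57976911 near Fam83a had 8.38 and 9.47 and held a tRNA-Met gene. The peak at chr4:8646615-8648563, 41.8 kb from Chd7, a chromatin remodeller, had 7.14 and 9.54. All 3 had the higher fold enrichment in D1, the list that ranked them.

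tRNA genes accounted for a large share of the strongest far peaks. These peaks passed the distance rule because the GENCODE starts behind it include no tRNA genes. A tRNA gene lay inside 47 far shared peaks (1.37%, 1.03 to 1.82), beside a background of 0.604% of all shared peaks under the length limit. Among the 78 far shared peaks above percentile 75 of the A2a list 25 held a tRNA gene (32.1%, 22.7 to 43.0), against 13 of 354 from 50 to 75, 7 of 1777 from 25 to 50 and 2 of 1221 below 25. Of the 50 strongest, 18 held a tRNA gene. Near a start, 27 of 4707 peaks above percentile 75 did (0.574%).

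**Figure D2:**
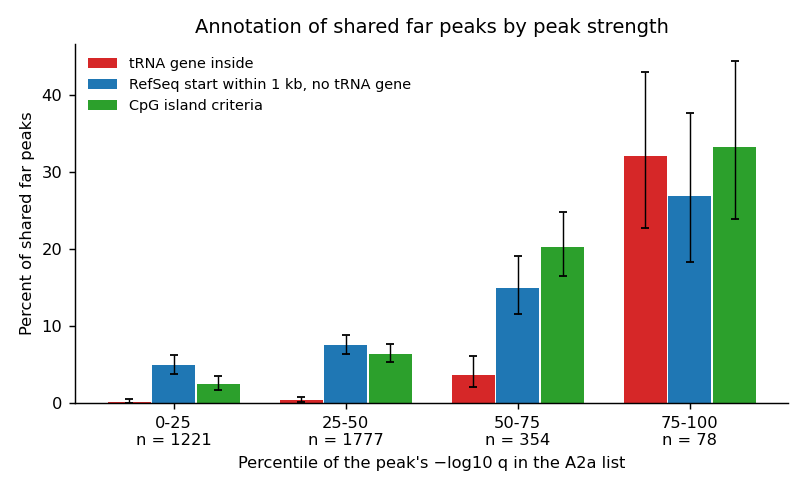
Percent of far shared peaks (vertical) that held a RefSeq tRNA gene, lay within 1 kb of a RefSeq transcript start without a tRNA gene, or met CpG island criteria, by percentile of the peak in the A2a list on −log10 q, in steps of 25 (horizontal); error bars are 95% Wilson intervals. All 3 shares rise with strength, tRNA genes from 0.164% to 32.1% and CpG islands from 2.46% to 33.3%.

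The tRNA peaks were long and high in both cell types. Their median length was 1487 bp, their median fold enrichment 8.38 in A2a (range 1.79 to 13.98) and 7.68 in D1 (range 1.86 to 13.13), and their median percentile 76.8 in A2a and 71.2 in D1. They held 65 of the 386 autosomal tRNA genes of RefSeq, for 18 amino acid isotypes, led by 8 genes for tRNA-Leu and 6 each for tRNA-Gly and tRNA-Thr. Counted from the genes, 209 tRNA genes lay at least 5 kb from a GENCODE transcript start, and 65 of these (31.1%) were inside a far shared peak. An A2a peak of any length covered 82 of the 209, and 161 of all 386 tRNA genes had peaks in both lists.

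Most summits did not fall on the tRNA gene. The median distance from the A2a summit to the start of the tRNA gene was 325 bp (quartiles 206 and 511 bp) over 65 pairs of peak and gene. The summit fell downstream of the start of the tRNA gene in 27 pairs, and in 6 of these 27 it lay inside the gene. The 12 peaks with more than 1 tRNA gene entered more than once with the same summit. A tRNA gene fills a small part of such a peak, and the share of summits expected on it by length was not computed. tRNA genes occur in near-identical copies and the authors removed reads with a mapping quality under 20, and the part of this filter in the position of the summits was not tested. On chromosome 13 there were 17 tRNA peaks, all between 20 and 24 Mb, and the autosomal 1-Mb window with the most far shared peaks, chr13:21000001-22000000, held 16 of them, 12 with a tRNA gene.

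RefSeq transcript starts lay within 1 kb of 269 further peaks, 230 of them predicted models and 39 curated. Their median fold enrichment was 7.49 in A2a and 6.01 in D1, above the 6.42 and 5.11 of the 3114 peaks with neither annotation. Some were RefSeq starts of a gene whose GENCODE starts lay elsewhere. At chr9:32031858-32034068, 82.1 kb from the nearest GENCODE start of Arhgap32, the fold enrichment was 8.49 in A2a and 8.13 in D1 and a curated start of the same gene lay inside. At chr6:102562637-102564734, in an intron of Cntn3, a contactin adhesion molecule, it was 6.23 and 5.87, and at chr9:67632301-67634596 near Tln2, a talin, 6.54 and 5.81, each with a predicted start of that gene inside. These 3 were picked after their values were seen. Within 5 kb of a RefSeq start there were 525 far shared peaks (15.3%).

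The strongest peaks with neither annotation, after those already named, were on chromosomes 14, 17 and 16 and were picked after their values were seen. The peak at chr14:34548327-34549889 in an intron of Ldb3, a Z-disc protein, was enriched 11.56-fold in A2a and 9.59-fold in D1. The peak at chr17:22080234-22081746, 84.4 kb from Zfp947, had 12.03 and 10.28. The peak at chr16:63856694-63858091 in an intron of Epha3, an ephrin receptor of axon guidance, had 11.38 and 10.74. All 3 stood above percentile 90 in both lists.

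The median far shared peak lay 17.2 kb from the nearest transcript start (quartiles 9.59 and 34.5 kb) and 30.3 kb from the nearest protein-coding one. There were 914 peaks (26.6%) between 5 and 10 kb, 1987 (57.9%) from 10 to 50 kb, 380 (11.1%) from 50 to 100 kb and 149 (4.34%) beyond. The nearest start belonged to a protein-coding gene for 1693 peaks (49.4%), to a lincRNA for 490 and to a processed pseudogene for 486. The median fold enrichment changed little with distance, from 6.35 between 5 and 10 kb to 6.25 beyond 100 kb. Peaks that met CpG island criteria fell from 9.08% in the nearest class to 2.01% in the farthest.

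**Figure D3:**
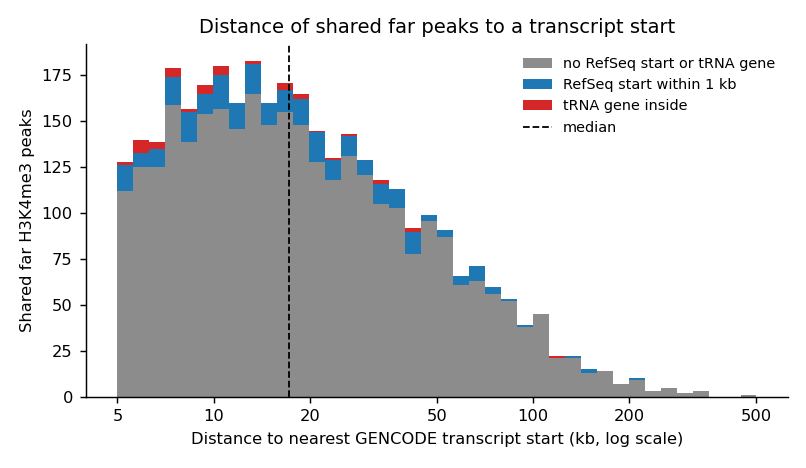
Number of far shared peaks (vertical) by distance from the nearest edge of the peak to the nearest GENCODE transcript start (horizontal, log scale), stacked by RefSeq annotation. The dashed line is the median of 17.2 kb, and the tRNA peaks sit mostly at the near end, with a median of 9.07 kb.

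The 5 most distant peaks were of middling strength. The farthest, chr4:77453537-77454451 in an intron of Ptprd, a receptor tyrosine phosphatase of synapse formation, lay 495039 bp from any start and was enriched 4.88-fold in A2a and 5.18-fold in D1. The next lay 335.3 kb from Sema6d, a semaphorin, at chr2:123754184-123754683, with 7.42 and 6.01. The others, on chromosomes 16, 11 and 19, had 10.30, 6.64 and 6.25 in A2a and 7.31, 6.21 and 4.35 in D1. None of the 5 overlapped an H3K27me3 island in either list.

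The distance threshold cut through a continuous range of values. The 3 peaks just inside it, at 5000, 5001 and 5007 bp, had A2a fold enrichments of 7.62, 5.08 and 5.86. The 3 shared peaks just outside, at 4996, 4993 and 4989 bp, had 5.08, 5.62 and 8.21. For the length limit, the longest peaks inside were 2317, 2313 and 2296 bp with 5.78, 3.05 and 6.54, and the shortest far shared peaks outside were 2439, 2442 and 2518 bp with 5.38, 5.43 and 5.46.

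By the summit, 1777 far shared peaks (51.8%) were intergenic, 1482 (43.2%) intronic and 171 (4.98%) exonic, whereas annotated genes of any biotype span 47.2% of the autosomes and exons 4.96%. Near a start 12.3% of shared peaks were intergenic. Intergenic far peaks were stronger than intronic ones, with a median fold enrichment of 7.03 and 5.94 in A2a and 5.59 and 4.76 in D1. Of 1447 peaks in protein-coding genes, 1221 had that gene's start as the nearest protein-coding start. The host genes named here were picked after their counts were seen, and the counts were not adjusted for gene length. Gm20388 hosted 15, the most of any. Dclk1, a microtubule-associated kinase of neurons, hosted 7, Bach2, a transcriptional repressor, 6, and Tcf4, a bHLH transcription factor, 5.

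The peaks had 2394 nearest protein-coding genes, 1770 of which were nearest to a single peak. The promoter of 82.5% of these genes carried an H3K4me3 peak in A2a and of 80.7% in D1, beside 63.1% and 60.5% of all 20807 autosomal protein-coding genes. For H3K27me3 islands the shares were 26.2% in A2a and 19.6% in D1, beside 25% and 18%. The genes near far shared peaks thus had marked promoters more often for H3K4me3, while the shares for H3K27me3 were close to those of all genes. Distance to genes and gene density are part of this count and were not separated from it.

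Snrpn, an imprinted gene of the Prader-Willi region, was the nearest protein-coding gene of the most peaks, 11, at 41.9 kb to 1.02 Mb from its nearest GENCODE start. The nearest 2, in an intron of Snrpn, each held a curated RefSeq start of Snrpn. Of these 11, 5 in a row on chromosome 7, from 60243527 to 60734259, were picked after their values were seen and had CpG observed/expected ratios of 0.64 to 0.81 and A2a fold enrichments of 7.04 to 10.96, and none of the 11 lay in an H3K27me3 island. Adgrl2, a latrophilin of synaptic adhesion, had 10, of which 3 lay in an A2a island and 2 in a D1 island, and Zfp516, a zinc finger gene, had 8, with 2 in each. Over all far shared peaks 11.3% and 6.82% lay in islands. Dclk1 had 9 within 35.0 kb and Kcnj2, an inwardly rectifying potassium channel, 8, none of them in an island, with A2a fold enrichments of 3.71 to 10.28 and 2.35 to 13.37. Six3, a transcription factor of the projection neuron list, was nearest to 7, from 24.5 to 217.7 kb away.

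Of 29 genes of the striatal projection neuron list, 18 had at least 1 far shared peak as nearest or host gene, with 44 peaks in all, and of 26 activity-induced genes 15 had 22. Over all 20780 protein-coding gene symbols on chromosomes 1 to 19, 2557 (12.3%) had 1. The lists were chosen with earlier results known, and the length and spacing of their genes were not matched. The strongest of these, chr14:17171048-17173154, lay 351.9 kb from Rarb, a retinoic acid receptor, enriched 6.52-fold in A2a and 5.89-fold in D1. The peak 13.9 kb from Rgs9, a brake on dopamine receptor signalling, had 14.03 and 8.36. The peak 6.8 kb from Sp9, a transcription factor of indirect pathway neurons, had 4.23 and 3.28 and lay in islands of both lists.

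The immediate early genes, which neuronal activity switches on within minutes, made up 8 of the 12 strongest peaks of the lists. The peak at chr19:5001836-5002324, 11.5 kb from Npas4, an activity-dependent transcription factor, was enriched 12.99-fold in A2a and 11.67-fold in D1, and a predicted RefSeq start of Npas4 lay 1115 bp away. Fos, a subunit of AP-1, had 2, at 10.4 and 17.8 kb, with 8.46 and 13.52 in A2a and 8.65 and 11.26 in D1. Nr4a1, an orphan nuclear receptor, had 2, at 12.5 and 6.8 kb, with 11.64 and 10.76 in A2a and 8.02 and 9.26 in D1. None of these lay in an H3K27me3 island. Fosb, another AP-1 subunit, had 2, at 8.9 and 16.5 kb, with 8.35 and 10.06 in A2a and 8.79 and 9.38 in D1, and Egr1, a zinc finger factor, had 1 at 25.8 kb with 5.93 and 6.00. Across the list, 19 of 22 peaks stood at a higher percentile in A2a, and across the projection neuron list 33 of 44, beside the background of 71.9% given above. Of the 22, 1 lay in an A2a island and 1 in a D1 island, the same peak near Jun, and of the 44 it was 4 and 6, beside 14.0% and 9.86% of all shared peaks under the length limit.

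At far peaks near Gpr6 and Penk, which were picked after their values were seen, H3K27me3 islands differed between the lists. The Penk promoter itself lay in islands of both lists, and the Gpr6 promoter in a D1 island alone. Gpr6, a receptor of indirect pathway neurons, had 2 far peaks, 7.9 and 29.2 kb away, with A2a fold enrichments of 7.76 and 4.11 and D1 fold enrichments of 5.93 and 3.52. The peak 29.2 kb away lay inside a D1 H3K27me3 island of 43.2 kb with 2445 reads. The peak 7.9 kb away met a D1 island of 21.8 kb with 1265 reads only at its edge. The A2a summit and the D1 H3K4me3 peak at that site lay outside this island. Neither Gpr6 peak overlapped an A2a island. Penk, which encodes proenkephalin of the indirect pathway, had 1 at 60.7 kb, with 3.71 and 3.94, inside a D1 island of 24.4 kb with 1658 reads and in no A2a island. An H3K4me3 peak in both lists at all 3 sites was given by the rule that chose the peaks. Islands were called there in D1 alone, and at the site 7.9 kb from Gpr6 the island reached only the edge of the A2a peak.

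Most far shared peaks lay outside H3K27me3 islands. In A2a, 386 of 3430 (11.3%, 10.2 to 12.4) overlapped an island by at least 1 bp, beside a background of 14.0% of all shared peaks under the length limit. In D1 it was 234 (6.82%, 6.03 to 7.72), beside 9.86%. Islands covered 12.1% of autosomal bases in A2a and 7.43% in D1, and 10.8% and 6.41% of the summits lay in them. Near a start 14.7% and 10.7% of the peaks overlapped an island. For far peaks of A2a alone the shares were 14.1% (12.7 to 15.7) and 10.45% (9.19 to 11.9). The lower shares thus held for far peaks that were shared, not for all far peaks.

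The difference from near-start peaks depended on strength. From percentile 25 to 50 of the A2a list 13.4% of far shared peaks (11.9 to 15.1) overlapped an A2a island, against 35.3% (33.7 to 37.0) near a start, and below 25 it was 8.19% (6.78 to 9.86) against 24% (21.3 to 27). From 50 to 75 the shares were 12.1% (9.14 to 16.0) and 9.93% (9.07 to 10.9), with overlapping intervals, and above 75 they were 6.41% (2.77 to 14.1) and 3.42% (2.94 to 3.98). D1 islands gave the same order, with 8.05% against 27.8% from 25 to 50 and 6.50% against 6.08% from 50 to 75. Below percentile 50, peaks near a start lay in islands more often than far peaks, and above it the intervals of the sets overlapped.

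**Figure D4:**
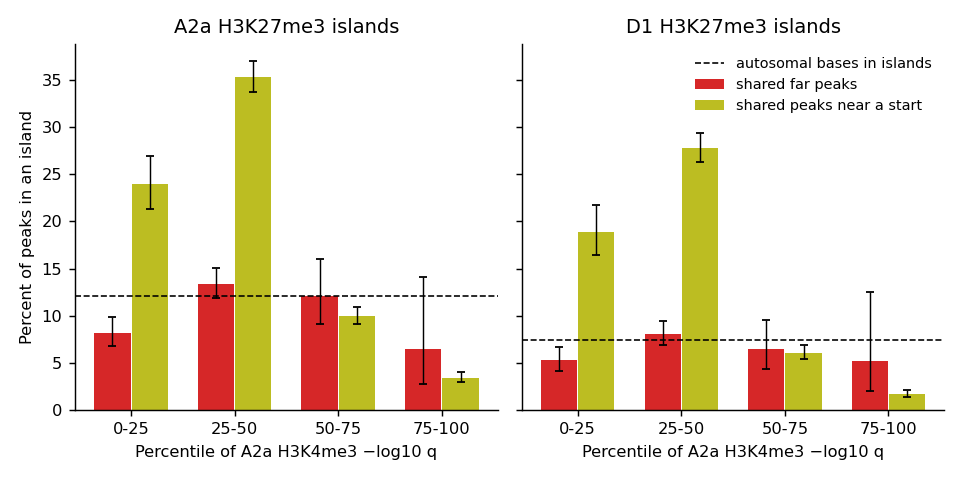
Percent of H3K4me3 peaks that overlapped an H3K27me3 island (vertical), for far shared peaks and shared peaks near a start, by percentile in the A2a H3K4me3 list on −log10 q, in steps of 25 (horizontal), with A2a islands on the left and D1 islands on the right. Error bars are 95% Wilson intervals and the dashed line is the share of autosomal bases in islands, 12.1% in A2a and 7.43% in D1.

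Of the 3430 peaks, 204 (5.95%) lay in islands of both lists, beside a background of 9.25%, 182 in an A2a island alone, 30 in a D1 island alone and 3014 in neither. The 204 were 87.2% of those in a D1 island and 52.8% of those in an A2a island, and more bases were called in A2a. The islands that held them had a median length of 5.90 kb in A2a and 4.40 kb in D1, and since a long island is more likely to overlap a peak, these are not comparable with the median over all islands. Intergenic far peaks lay in A2a islands more often than intronic ones, 14.1% against 8.03%, and the share rose from 8.75% at 5 to 10 kb to 15.5% at 50 to 100 kb and 16.1% beyond 100 kb. In D1 these shares were 8.89% and 4.52% by place, and 5.91%, 9.47% and 10.7% by distance.

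The 4 strongest peaks in islands of both lists were nearest to Robo1, Klf4, Chd7 and Neu4. At chr16:72027468-72029650 a predicted start of Robo1, an axon guidance receptor, lay inside the peak, 278.7 kb from its nearest GENCODE start, with an enrichment of 5.61-fold in A2a and 5.08-fold in D1, in islands of 4.2 kb with 381 reads and 3.2 kb with 142 reads. At chr4:55650810-55652081, 118.3 kb from Klf4, a pluripotency factor, it was 11.04 and 9.79, in islands of 3.4 and 13.2 kb. The peak near Chd7 named above lay in islands of 4.6 and 4.2 kb, with a CpG ratio of 0.97. At chr1:94035073-94035928, 14.6 kb from Neu4, a sialidase, it was 15.09 and 12.53, in islands of 3.0 and 3.8 kb. Read counts are not normalized between the lists.

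Most far shared peaks were poor in CpG. The median CpG observed/expected ratio was 0.37 (quartiles 0.25 and 0.48), against 0.65 near a start and 0.32 for far peaks of A2a alone. CpG island criteria were met by 242 (7.06%, 6.25 to 7.96), beside a background of 45.9%. The share depended on the annotation, with 10.65% when only starts of protein-coding genes counted and 12.58% when only the 5′ ends of genes did. With strength the share rose from 2.46% below percentile 25 of the A2a list to 33.3% above 75. tRNA peaks had a median ratio of 0.66 at a GC content of 46.7%, so that 17.0% of them met all criteria, and peaks at RefSeq starts had 0.40. The highest ratio, 1.13, was at chr6:47740215-47740604, 72.8 kb from Pdia4, enriched 7.82-fold in A2a and 6.01-fold in D1. The next, 1.09, was at chr7:6874438-6874688, in an intron of Usp29, an imprinted gene beside Peg3, with 3.13 and 3.94.

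**Figure D5:**
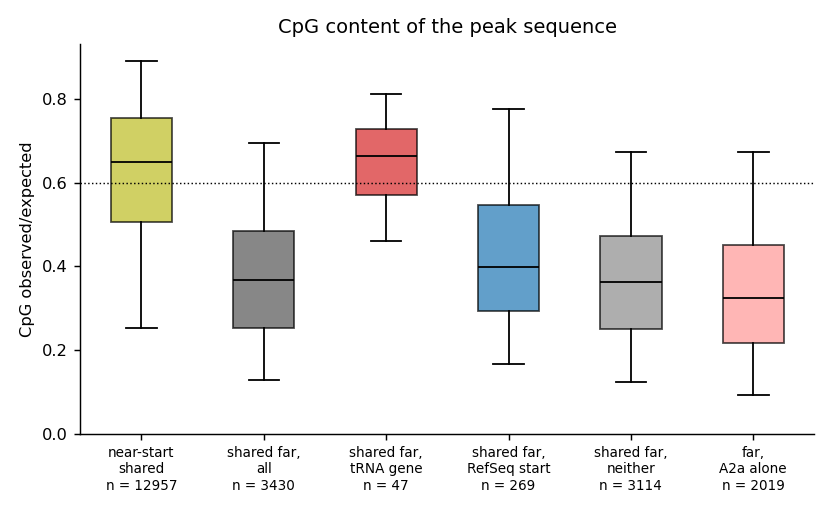
CpG observed/expected ratio of the peak sequence (vertical) for shared peaks near a start, far shared peaks and their 3 annotation classes, and far peaks of A2a alone; boxes are quartiles, lines medians and whiskers the 5th and 95th percentiles, and the dotted line is the CpG island limit of 0.6. The tRNA peaks, with a median of 0.66, reach the level of the peaks near a start, 0.65.

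Repeats were rare inside the peaks, as they were in the comparison sets. The median far shared peak was soft-masked over 9.12% of its length, against 7.94% near a start and 8.0% for far peaks of A2a alone. Of all autosomal bases 33.5% were soft-masked, and the part of the mapping quality filter in this difference was not tested. Of the far shared peaks 36 (1.05%) were masked over more than 50%. Near a start 0.270% were. The median GC content was 48.1%, against 55.8% near a start.

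Motif letters around the summit differed between far and near peaks. In windows of 300 bp, read on both strands with motifs searched independently of each other, the AP-1 letters TGANTCA were found in 11.7% of far shared peaks (10.6 to 12.8), in 11.8% of far peaks of A2a alone, in 5.07% near a start (4.71 to 5.46) and in 7.84% of 31396 RefSeq promoters of the same length. The GC box GGGCGG, bound by Sp factors, was found in 14.4%, 10.8%, 43.0% and 36.0%. For the MEF2 letters CTANNNNTAG the shares were 4.52%, 4.90%, 2.86% and 3.73%, for the CTCF letters CCANNAGNNGGC 2.65%, 1.73%, 2.24% and 2.47%, and for the cAMP response element TGACGTCA 0.496%, 0.248%, 1.15% and 1.83%. Base composition differed between the sets and its part in these shares was not tested.

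RefSeq lists 1010 autosomal enhancer features, and 41 far shared peaks (1.20%, 0.882 to 1.62) overlapped 1, against 0.309% near a start and 0.892% of far peaks of A2a alone. Most of the features overlapped were from the VISTA collection of enhancers. The strongest of the 41, picked after its values were seen, lay 23.2 kb from Wnt10a, enriched 10.99-fold in A2a and 10.45-fold in D1, and also held the tRNA-Gly gene n-TGgcc3. The peaks at 17.8 kb from Fos and at 8.9 kb from Fosb, given above, were next. Whether these features are active in MSNs was not analysed here.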

How the data were processed

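The authors aligned reads to mm10 with Bowtie2 (version 2.1.0) and dropped reads mapped with a quality under 20 and duplicates. They kept only read pairs within a set range of insert sizes, and pooled the 2 replicates of each cell type and mark. For H3K4me3 the authors ran MACS2 with a q-value limit of 0.01, and each deposited peak carries its fold enrichment over local background (a ratio), the −log10 of its q-value, a summit and an integer score. For H3K27me3 the authors ran SICER (200-bp windows, 600-bp gaps, false discovery rate 0.01), and each deposited island carries a read count that is not normalized. The MACS2 settings that the authors list name no control library, and the control behind the islands is not given in the sources used here. The depth of the libraries is not known from the lists. Of the 28 samples, those of N2a cells, controls and other antibodies were not analysed here.

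Coordinates are on mm10 (GRCm38), counted from 1. Transcript starts were taken from GENCODE release M21 (141767 transcripts, 55450 genes), and tRNA genes, further transcript starts, enhancer features and the sequence from RefSeq on GRCm38.p6. The 21819 autosomal A2a peaks were annotated in Python (version 3.11.15) with numpy (version 2.4.6), pandas (version 2.3.3) and scipy (version 1.17.1), and figures were drawn with matplotlib (version 3.10.9). Percentiles are ranks by −log10 q within the whole of a list. Soft-masked bases are those in lower case in the RefSeq sequence. Shares have 95% Wilson intervals, which cover counting error only, and no test was run because the lists hold no replicates. The search for members was tested on simulated data, where all 1473 members among 4000 simulated peaks were recovered and none was added. The peaks, gene lists and motifs were chosen with earlier results of these data known, and all comparisons with RefSeq tRNA genes, transcript starts and enhancers were added after the data had been seen. Peaks named in the text were the 8 strongest in A2a, the next 3 in D1, the 5 most distant, up to 12 of the gene lists, the 4 strongest in islands of both lists, those beside the thresholds, the 2 with the highest CpG ratio and the 5 genes with the most peaks, with others said to be picked after their values were seen. Some items covered by this rule are not reported here.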

Additional observations from a re-analysis of the deposited data

How the results depend on the processing

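The number of far shared peaks ran from 2516 at a distance of at least 10000 bp to 4817 when the annotated 5′ ends of genes replaced the transcript starts, within 1.5 times of 3430 under every alternative run. The shares in A2a and D1 islands stayed inside their intervals under all 10 alternatives, from 10.64% to 12.16% and from 6.18% to 7.66%. The median A2a fold enrichment moved from 6.45 to 6.72 with protein-coding starts only, 6.63 with gene ends, 6.80 with an overlap of at least 50% of both peaks and 7.02 at a −log10 q of at least 5. The share that met CpG island criteria moved from 7.06% to 8.30% at a distance of at least 2 kb, 10.65% with protein-coding starts only, 12.58% with gene ends, 8.36% with D1 peaks as members and 9.30% in 500 bp around the summit. With RefSeq starts and tRNA genes added to the starts, an alternative chosen after seeing the data, 2872 peaks were left and the CpG island share was 5.85%. Of 67 other values compared, 31 moved beyond their interval, 21 upwards and 10 downwards. The cause of these shifts was not tested. No paired analysis was possible because each list pools its replicates, and for the same reason no replicate could be left out. Depth is not known from the lists, so a site without a peak or island may be below detection.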
